A study of Mus musculus with 6 samples.

Results

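The Notch receptor genes Notch1, Notch2 and Notch3, the ligand genes Dll1, Dll3, Dll4, Jag1 and Jag2 and the fringe genes Lfng and Rfng were followed in mouse neural stem cells with and without a hairpin against Mina53. They were chosen by symbol, 10 of the 25996 genes of the deposited table, and each had a single entry. RNA was sequenced from cultures of neural stem cells kept in proliferation conditions. 3 libraries carried a control hairpin and wild-type genotype (called shcontrol), and 3 a knockdown of Mina53, gene symbol Riox2 (called shMina53); no treatment, time or age distinguishes the groups further. The labels do not say whether the replicates were separate cultures, so p-values here reflect only how far these samples scatter, possibly for technical reasons. With 1 knockdown condition and no rescue, effects of the hairpin other than on Mina53 cannot be told apart.

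Notch is a receptor on the cell surface that is activated by ligands of the Delta and Jagged families on neighbouring cells. Binding lets ADAM proteases and then gamma-secretase cut the receptor, and the freed intracellular part enters the nucleus, where it joins RBPJ and a Mastermind protein to switch on Hes and Hey genes. In the developing brain this pathway holds neighbouring progenitors undifferentiated while ligand-bearing cells go on to differentiate. Fringe enzymes lengthen the O-fucose sugars on the receptor and thereby alter how well it responds to Delta and to Jagged ligands. Dll3 is the divergent Delta: it stays largely inside the cell and acts on Notch in the same cell as an inhibitor rather than activating it in a neighbour.

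Dll3 fell and Lfng rose in shMina53, and the other 8 genes did not pass the test. Dll3 was at 49.1% of its shcontrol mean and Lfng at 166%. The 3 receptor genes had higher means in shMina53 and the 3 Delta genes lower ones, while the 2 Jagged genes and Rfng moved by 0.12 to 0.14 on the log2 scale. In bulk RNA, fewer cells of a type and less RNA per cell cannot be told apart. Levels are scaled counts, meaning reads divided by a library-wide factor, and are given as mean ± SD over n = 3 libraries. Each fold change is a log2 value, positive where shMina53 was higher, with its standard error (SE) from limma on log2 of the scaled count plus 1, and a gene counts as called at an adjusted p under 0.05 over all 21500 genes tested. Of those genes 8.26% were called, 3.79% higher and 4.47% lower, and 1 higher and 1 lower of 10 are too few to set these genes apart from that background. The groups did not overlap for 7 of the 10 genes, against 29.1% of all genes tested, and the median fold change of the 10 was 0.13, against 0.02 over all genes.

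**Figure D1:**
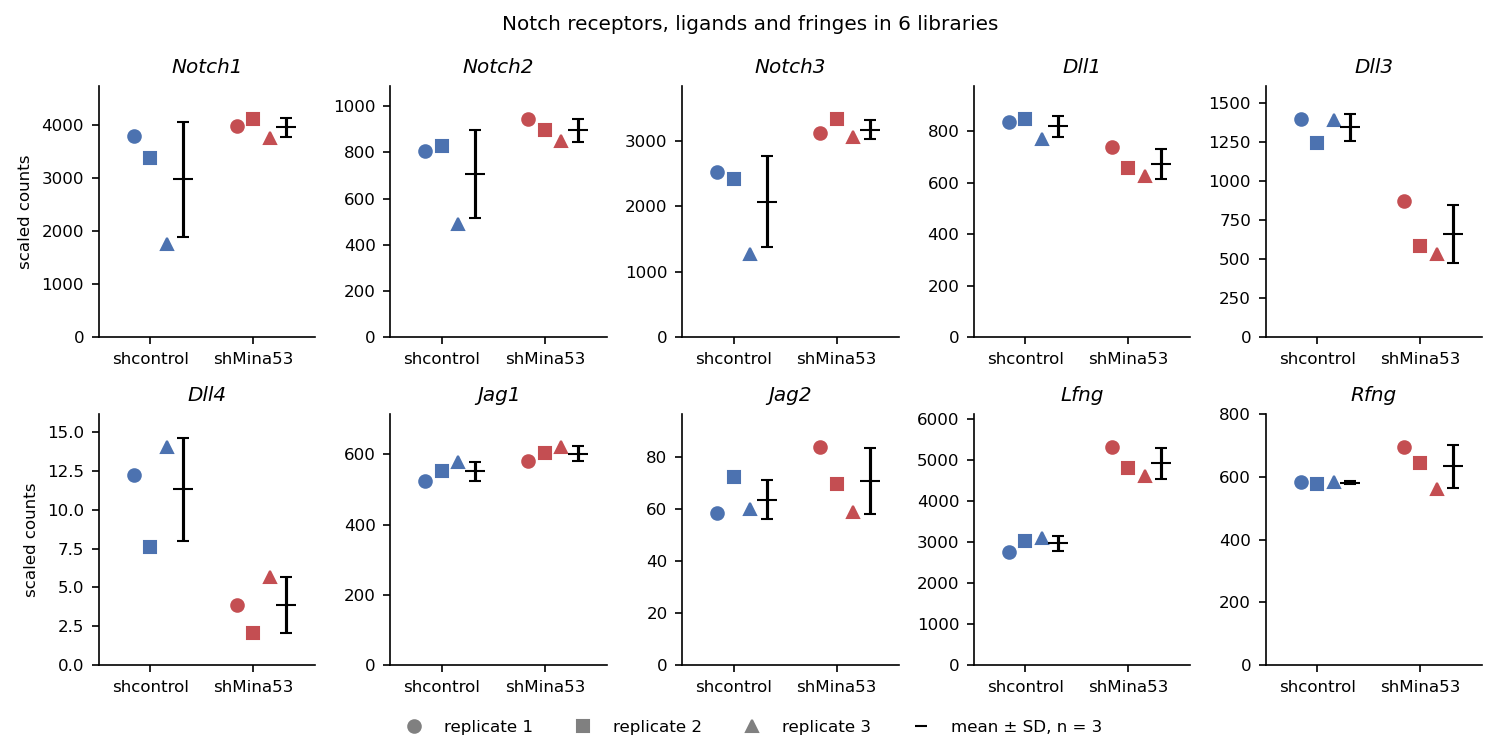
Scaled counts (vertical axes, from 0, with a scale for each gene) of the 10 genes in the 3 shcontrol libraries (blue) and 3 shMina53 libraries (red). Symbols mark the replicate number and black bars the mean ± SD (n = 3). Dll3 is lower and Lfng higher in every shMina53 library, and shcontrol 3 lies far below shcontrol 1 and 2 for the 3 receptors.

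Totals were 13753857 to 16811085 reads per library. Riox2, the targeted gene, had 290.4 to 333 scaled counts in shcontrol and 121 to 125 in shMina53 (log2 fold change -1.34, SE 0.146; adjusted p = 9.1e-05). Its exons share 1185 bases with Crybg3 on the other strand, which had a mean of 259 against 216 for Riox2. One control library stood furthest apart by transcript length. Among 11377 protein-coding genes whose mean reached 50, the median level in shcontrol 3 lay 0.50 above the mean of the 6 libraries on the log2 scale for the 374 genes under 1 kb of exon sequence and 0.38 below it (-0.38) for the 961 genes of 8 kb or more. In the other 5 libraries the median for the longest genes lay between -0.05 and 0.14. For the genes under 1 kb it was -0.07 and 0.13 in shcontrol 1 and 2. In shMina53 1, 2 and 3 it was -0.09, -0.15 and -0.29, so the groups also differed for short genes. Neural stem and progenitor markers were abundant in all libraries (all 8 with a mean of at least 100), as were those of astrocytes (all 8) and of the oligodendrocyte lineage (all 8), while 6 of 8 microglial markers were not analysed here and the other two summed to 1.89 to 5.80 scaled counts per library.

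Compared per kilobase of exon sequence, Lfng was the most abundant of the 10 in both groups (1287 ± 75.9 scaled counts per kb in shcontrol and 2136 ± 161 in shMina53). In shcontrol Dll3 came next (514 ± 33.4), followed by Notch1 (313 ± 114), Rfng (275 ± 1.75), Notch3 (258 ± 86.7) and Dll1 (229 ± 11.6). From Notch1 to Dll1 the ranges of neighbours overlapped, so their order is not resolved. Jag1 (98.3 ± 4.68), Notch2 (67.3 ± 18.0), Jag2 (12.5 ± 1.5) and Dll4 (3.02 ± 0.889) followed, each with a range apart from the next. In shMina53 Dll3 held place 5, at 253 ± 70.3 per kb, behind Notch1, Notch3 and Rfng, though its range overlapped those of Rfng above it and Dll1 below it. The places from Dll1 to Dll4 were the same in both groups.

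Of the receptors, Notch3 had the largest difference. Notch3 (ENSMUSG00000038146; mm10 chromosome 17, 32120820 to 32166852, minus strand), a receptor known from vascular mural cells and from quiescent neural stem cells, stood at 2519, 2413 and 1266 scaled counts in shcontrol libraries 1, 2 and 3, against 3121, 3336 and 3059 in those of shMina53. Every shMina53 library was above every shcontrol library, and shcontrol 3 was at 51.3% of the mean of the other two controls. The fold change was 0.68 (SE 0.239; 95% interval 0.13 to 1.23) and was not called (adjusted p = 0.128). Leaving out shcontrol 3 lowered the fold change to 0.36 but brought it past the threshold (adjusted p = 0.00267, where 11.6% of genes were called). DESeq2 on the recovered reads also called it (0.62; adjusted p = 0.0123; 15.3% of genes called), whereas edgeR did not (0.62; adjusted p = 0.0668; 11.9% called). With the length trend of each library removed, Notch3 was at 0.52 with the groups still apart (adjusted p = 0.0708; 10.7% of genes called). Markers of fibroblasts and mural cells summed to 235 to 342 scaled counts in shcontrol and 357 to 555 in shMina53. Most of this sum was Acta2 (224 ± 45.4 and 344 ± 95.2). Of 6 markers tested 0 were called by limma or edgeR and 1 was higher by DESeq2, Acta2, which was also called with the length trend removed. At an unadjusted limma p under 0.05, 2 were higher, Acta2 and Rgs5 (17.3 ± 5.62 and 30.7 ± 6.60). The part of these markers in the values of Notch3 was not tested.

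Notch1 (ENSMUSG00000026923; chromosome 2, 26457903 to 26516663, minus strand), the main receptor of neural progenitors, had 3784, 3374 and 1744 scaled counts in the control libraries against 3977, 4110.2 and 3756 in the knockdown libraries. Its groups overlapped, since shcontrol 1 lay above shMina53 3. The fold change of 0.49 (95% interval -0.16 to 1.14; adjusted p = 0.343) became 0.14 without shcontrol 3 and 0.28 with the length trend removed. Notch2 (ENSMUSG00000027878; chromosome 3, 98013527 to 98150361, plus strand), the receptor that in the adult brain helps keep stem cells quiescent, had 806, 825 and 488 against 945, 896 and 847. The groups were apart, with a fold change of 0.38 (95% interval 0.02 to 0.74; adjusted p = 0.19). It was 0.13 without shcontrol 3 and 0.15 with the length trend removed, where the groups overlapped.

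The 3 receptor transcripts are among the longest genes (8016 to 10500 bases of exon sequence), and they shared the low value of shcontrol 3, where Notch1 was at 48.7% and Notch2 at 59.9% of the mean of shcontrol 1 and 2. No ligand or fringe gene with a mean over 50 differed by more than 10% in that comparison (91.6% for Dll1 to 107% for Jag1). Their deviations in shcontrol 3, -0.93 for Notch1, -0.68 for Notch2 and -0.98 for Notch3, were larger than the median of -0.38 for genes of their length. Removing the trend left -0.57, -0.27 and -0.68. Ratios within a library do not depend on its scaling factor, and Notch3 was higher relative to Notch1 in shMina53: 0.666, 0.715 and 0.726 in shcontrol against 0.785, 0.812 and 0.814 in shMina53. The groups did not overlap for this ratio, nor for Notch3 over Notch2 (2.59 to 3.13 against 3.30 to 3.72), but did for Notch1 over Notch2 (3.57 to 4.69 against 4.21 to 4.59). These ratios were formed after the values were seen and are given without a test.

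**Figure D2:**
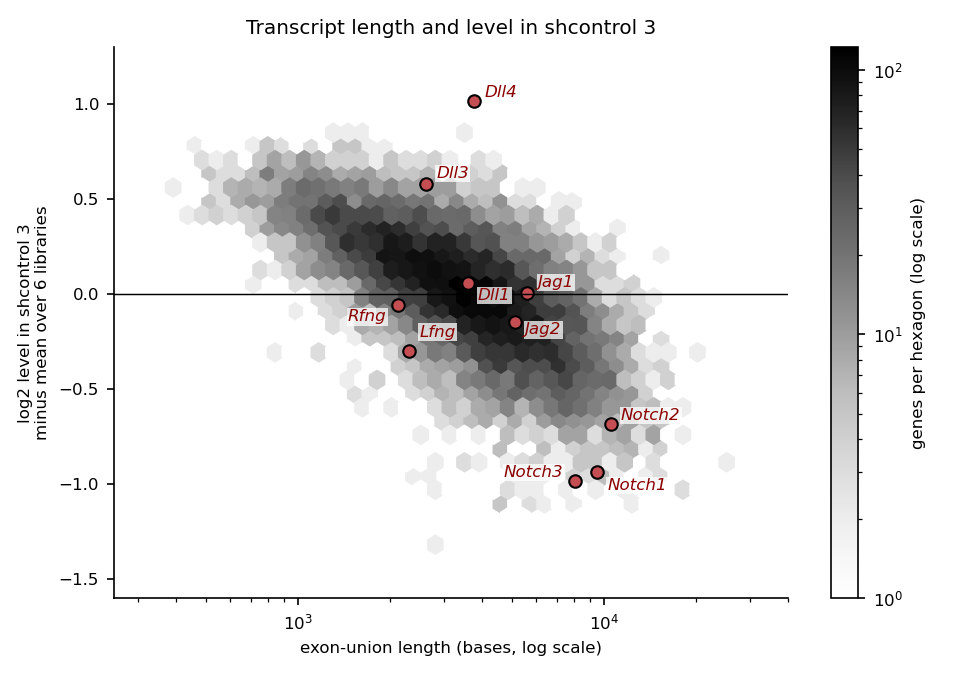
Exon-union length (horizontal axis, bases, log scale) against the log2 level in shcontrol 3 minus the mean over all 6 libraries (vertical axis), for 11377 protein-coding genes whose mean reached 50 (hexagons, darker with more genes; 7 genes lie outside the axes) and the 10 Notch genes (red; Dll4 and its mean of 7.59 lie under that minimum). Longer genes were lower in shcontrol 3, and Notch1, Notch2 and Notch3 lie at the lower edge at -0.93, -0.68 and -0.98.

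Among the Delta ligands Dll3 changed. Dll3 (ENSMUSG00000003436; chromosome 7, 28293553 to 28302238, minus strand) had 1401, 1246 and 1393 scaled counts in the control libraries against 872, 582 and 531 in the knockdown libraries. The groups were far apart, and the spread was wider in shMina53, where shMina53 1 kept the highest value. The log2 fold change was -1.06 (SE 0.154; 95% interval -1.38 to -0.73; adjusted p = 0.000795). Dll3 stayed called in each of the 6 fits without 1 library, from -1.27 without shMina53 1 to -0.92 without shMina53 3, with adjusted p up to 0.0386. Its fold change was -0.98 with the length trend removed (adjusted p = 0.00168), -1.02 by edgeR (adjusted p = 0.00385) and -1.02 by DESeq2 (adjusted p = 1.73e-07). None of the genes annotated in GENCODE M21 overlapped Dll3.

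Dll1 (ENSMUSG00000014773; chromosome 17, 15367354 to 15376872, minus strand), the ligand that activates Notch in neighbouring progenitors, had 837, 849 and 772 scaled counts in the control libraries against 738, 658 and 626 in the knockdown libraries. All shMina53 libraries were lower, but the fold change of -0.28 (95% interval -0.53 to -0.04) was not called (adjusted p = 0.138). It was called without shcontrol 3 (-0.33; adjusted p = 0.0341) and in none of the other 5 fits without 1 library. The ratio of Dll3 to Dll1 went from 1.67, 1.47 and 1.80 in the control libraries to 1.18, 0.885 and 0.848, with no overlap, so that Dll3 was lower relative to Dll1 as well.

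Dll4 (ENSMUSG00000027314; chromosome 2, 119325784 to 119335962, plus strand), best known as the Delta ligand of endothelial cells, was close to the limit of detection. It had 36 reads over the shcontrol group and 11 over shMina53, or 12.3, 7.63 and 14.1 against 3.87, 2.08 and 5.65 scaled counts. The groups did not overlap, but the fold change of -1.37 (95% interval -2.46 to -0.28) was not called (adjusted p = 0.113) and depended on the pseudocount, with -0.88 at a pseudocount of 5. Most endothelial markers were likewise near absence, with Cdh5 and Tie1 not analysed here and Cldn5 and Emcn at a mean under 1. They summed to 48.8 to 71.5 scaled counts in shcontrol and 65.7 to 81.0 in shMina53, mostly Kdr (46.7 ± 13.3 and 61.6 ± 4.88). Of 4 tested 0 were called, with 2 fold changes positive and 2 negative. Esam, 1 of the negative ones, had 22 and 6 reads with no overlap (adjusted p = 0.127).

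The Jagged ligands differed little. Jag1 (ENSMUSG00000027276; chromosome 2, 137081456 to 137116644, minus strand), a ligand used by the neurogenic niche, had 525, 552 and 578 scaled counts in the control libraries against 580.0, 604 and 622 in the knockdown libraries. Although the groups did not overlap, the highest shcontrol value nearly met the lowest shMina53 value, and the fold change of 0.13 (95% interval -0.11 to 0.37) was not called (adjusted p = 0.546). Jag2 (ENSMUSG00000002799; chromosome 12, 112907819 to 112929776, minus strand), a further Jagged ligand, had 58.5, 72.4 and 60.1 against 84.1, 69.5 and 58.7. Its groups overlapped (0.14, 95% interval -0.33 to 0.61; adjusted p = 0.754), and the interval leaves room for a change of over 1.5 times.

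Per kilobase, the 5 ligands together summed to 857 ± 26.1 scaled counts in shcontrol and 563 ± 84.9 in shMina53. Dll3 made up 59.98% ± 2.16 of this sum in shcontrol (61.0%, 57.5% and 61.4%) and 44.3% ± 5.37 in shMina53 (50.5%, 42.1% and 40.4%). The share of Dll1 went from 26.7% ± 1.88 to 33.6% ± 2.09 and that of Jag1 from 11.5% ± 0.702 to 19.4% ± 3.34, although neither gene had a called rise. Shares add to a fixed whole, so the combined share of the other 4 ligands had to grow as that of Dll3 shrank. That of Dll4 went from 0.351% ± 0.096 to 0.187% ± 0.101. The receptor sum went from 638 ± 218 per kb, with 388 in shcontrol 3, to 897 ± 38.3.

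**Figure D3:**
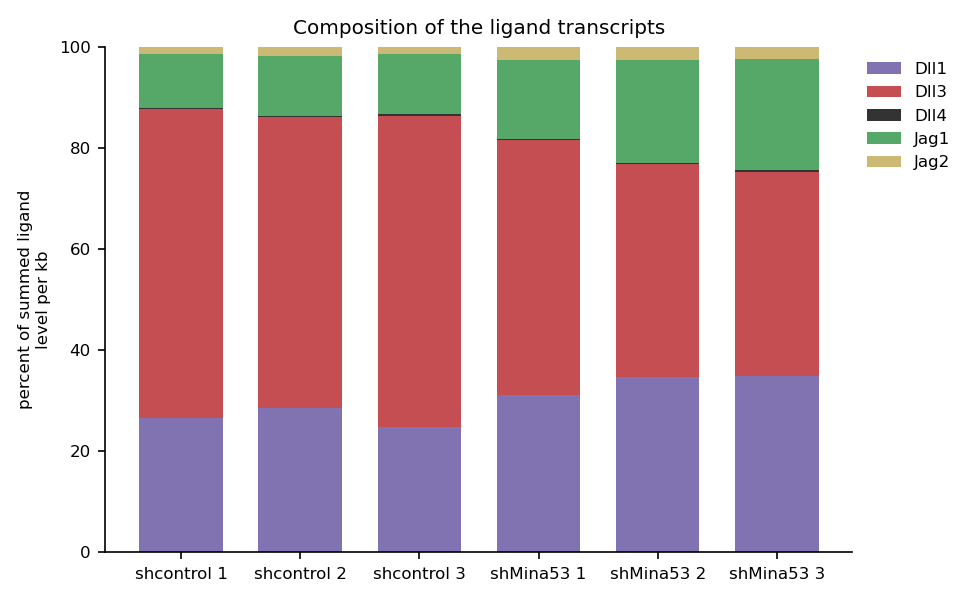
Share of each ligand gene (vertical axis, percent) in the summed level per kb of the 5 ligand genes, as a stacked bar for each of the 6 libraries. Dll3 takes 57.5% to 61.4% in shcontrol and 40.4% to 50.5% in shMina53.

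Of the fringe genes Lfng changed and Rfng was not called. Lfng (ENSMUSG00000029570; chromosome 5, 140607320 to 140615545, plus strand), lunatic fringe, had 2768, 3033 and 3099 scaled counts in the control libraries against 5336, 4813 and 4619 in the knockdown libraries. The lowest shMina53 library was well above the highest shcontrol library. The fold change was 0.73 (SE 0.106; 95% interval 0.50 to 0.95; adjusted p = 0.000653). Lfng was called in each of the 6 fits without 1 library (0.67 to 0.77; adjusted p up to 0.0102), by edgeR (0.74; adjusted p = 0.00199) and by DESeq2 (0.73; adjusted p = 6.92e-09). With the length trend removed it was 0.84 (adjusted p = 5.04e-06). No annotated gene overlapped it.

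Rfng (ENSMUSG00000025158; chromosome 11, 120780746 to 120784207, minus strand), radical fringe, had 585, 578 and 583 scaled counts in the control libraries against 697, 646 and 561 in the knockdown libraries, so that the groups overlapped (0.12, 95% interval -0.13 to 0.37; adjusted p = 0.591). The interval of Rfng ended below that of Lfng, though the difference between their fold changes was not tested. Within each library Lfng was 4.74, 5.25 and 5.31 times Rfng in shcontrol and 7.66, 7.45 and 8.23 times in shMina53, in scaled counts not corrected for length, with no overlap. Mfng, manic fringe, which was not among the 10, was the least abundant fringe and fell from 93.2 ± 9.79 to 52.7 ± 15.6 (-0.85; adjusted p = 0.0382). Leaving out a library ended the call of Mfng except where it was shcontrol 3 or shMina53 1 (adjusted p up to 0.2), as did the fit with the length trend removed (adjusted p = 0.0708). Summed per kb, Lfng took 79.8% ± 1.18 of the 3 fringe genes in shcontrol and 86.7% ± 0.472 in shMina53.

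**Figure D4:**
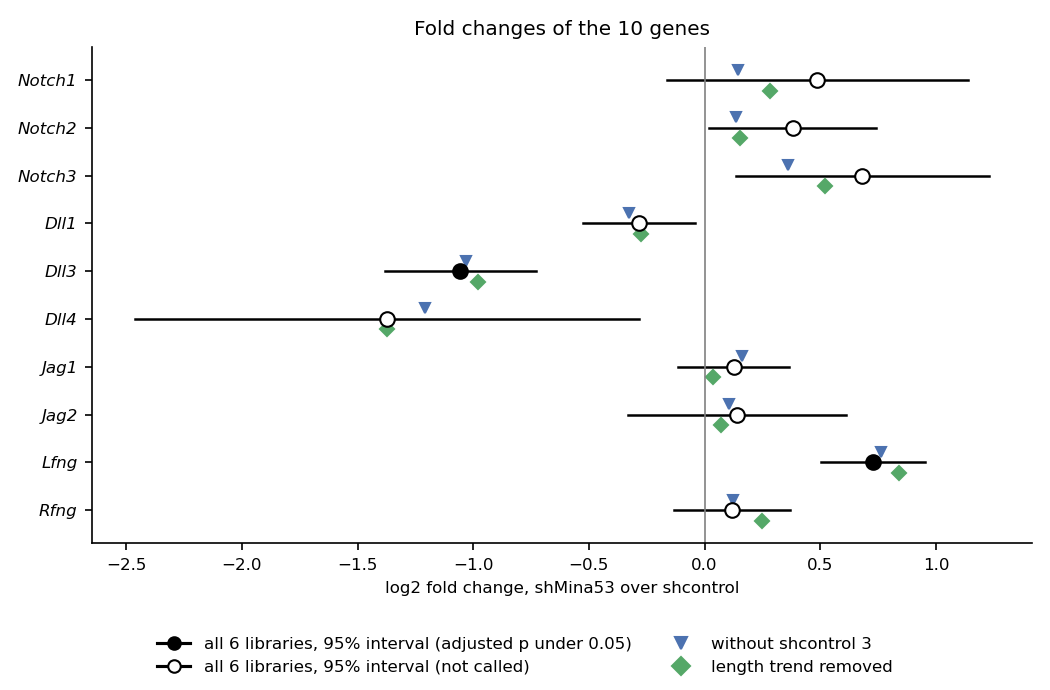
Log2 fold change of shMina53 over shcontrol (horizontal axis) for the 10 genes. Circles are the fit to all 6 libraries with its 95% interval, filled where the adjusted p was under 0.05; triangles leave out shcontrol 3 and diamonds have the length trend removed. Dll3 at -1.06 and Lfng at 0.73 move little between settings, whereas Notch1 goes from 0.49 to 0.14 and Notch2 from 0.38 to 0.13 without shcontrol 3.

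Upstream sequence was searched because Lfng and the target gene Hes5 changed in opposite directions although both are known to respond to Notch. RefSeq windows on GRCm38.p6, the 250 bases before each start, were found for all 10 genes (11 windows, of which Dll1 had 2). They were searched on both strands for TGGGAA, the core of the RBPJ site, whose reverse complement is TTCCCA, and for CAGCTG, an E-box of the kind proneural factors bind, which is its own reverse complement. TGGGAA was present in 21.6% of 32851 such windows of all genes and in 1 of the 11, that of Lfng. CAGCTG was present in 13.0% of all windows and in 4 of the 11, those of Lfng, Dll3, Jag1 and 1 of Dll1. The window of Dll3 lies inside an exon of GENCODE M21 and is not shown. Those of Notch1, Jag2 and 1 of Dll1 also lie within the GENCODE bounds of their gene, as does the CAGCTG of Jag1. The 11 windows are therefore not all upstream of the GENCODE start. A match is a description of the letters and not evidence of binding.

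The windows of Lfng (chr5:140607091-140607319, plus strand, shortened to the bases before the GENCODE start) and of Hes5 (chr4:154960673-154960922, plus strand) are shown 5′ to 3′ with the searched motifs in capitals. Both hold TGGGAA once on each strand, beginning 135 and 108 bases before the RefSeq start in Lfng and 226 and 82 bases before it in Hes5.
Lfng: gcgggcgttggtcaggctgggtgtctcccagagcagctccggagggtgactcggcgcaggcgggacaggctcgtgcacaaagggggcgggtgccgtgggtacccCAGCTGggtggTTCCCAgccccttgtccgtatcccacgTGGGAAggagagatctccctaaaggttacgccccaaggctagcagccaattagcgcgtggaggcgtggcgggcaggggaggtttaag
Hes5: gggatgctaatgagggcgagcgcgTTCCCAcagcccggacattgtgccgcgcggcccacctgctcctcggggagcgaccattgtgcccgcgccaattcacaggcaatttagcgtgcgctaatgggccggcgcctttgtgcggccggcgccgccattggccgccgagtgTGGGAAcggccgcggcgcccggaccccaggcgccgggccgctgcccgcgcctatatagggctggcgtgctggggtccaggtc

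Of 9 genes tested from a list of Notch targets, 5 fell, or 4 of 8 without Hes6, a member of the same family that is known to be induced by proneural factors. Over all genes tested limma called 4.47% lower. In either direction edgeR called 11.9%, DESeq2 15.3% and limma with the length trend removed 10.7%. By limma the 5 targets were called lower, 0 higher and 4 were not called. By edgeR and by DESeq2 the same 5 were lower and 0 higher, though each gave no adjusted p for some targets of low level. At an unadjusted limma p under 0.05, 0 targets were higher, and the median fold change was -0.54 (0.02 over all genes). Hes5, the repressor that holds progenitors undifferentiated, had 503, 492 and 478 scaled counts in the control libraries against 273, 241 and 286 in the knockdown libraries. It was called in all 6 fits without 1 library (adjusted p up to 0.0087), as no other target was. Hes1, a repressor of proneural genes, fell by 0.59 on the log2 scale, Hey1 and Hey2, related repressors, by 0.43 and 0.73, and Hes6, which opposes Hes1, by 0.54. Nrarp, a feedback inhibitor of Notch, was at 299 ± 10.4 and 297 ± 58.6 (-0.02; adjusted p = 0.944).

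Of these targets, Hes1 missed the threshold in 2 of the 6 fits without 1 library, those omitting shcontrol 2 or shMina53 3 (adjusted p up to 0.0831), and Hes6 in those omitting shcontrol 2, shMina53 2 or shMina53 3 (up to 0.0988). Hey1 missed it where shcontrol 2 or 1 of the shMina53 libraries was omitted (up to 0.145), under upper-quartile scaling (0.0519) and with the replicate number as a block (0.0516). Hey2 missed it without any 1 library except shcontrol 1 (up to 0.12). In limma without its trend and robust steps, which called 32 genes in all, 0 of the 5 targets were called (adjusted p from 0.0728 for Hes5 to 0.204 for Hey1). The 5 target genes are short, between 1273 and 2550 bases. Hes1, Hes5 and Hes6 are of 1 to 2 kb, where the median of genes was -0.05 to -0.15 in shMina53 and 0.31 in shcontrol 3. Hey1 and Hey2 are of 2 to 4 kb, where it was -0.01 to -0.04 in shMina53 and 0.09 in shcontrol 3. With the length trend removed, 5 targets were again called lower, Hes5 at -0.63 (adjusted p = 0.00493) and Hes1 at -0.37 (adjusted p = 0.0286). Hes6 and Hes1 shrank by over 1.5 times in that fit, Hes6 to -0.30 (adjusted p = 0.0349).

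**Figure D5:**
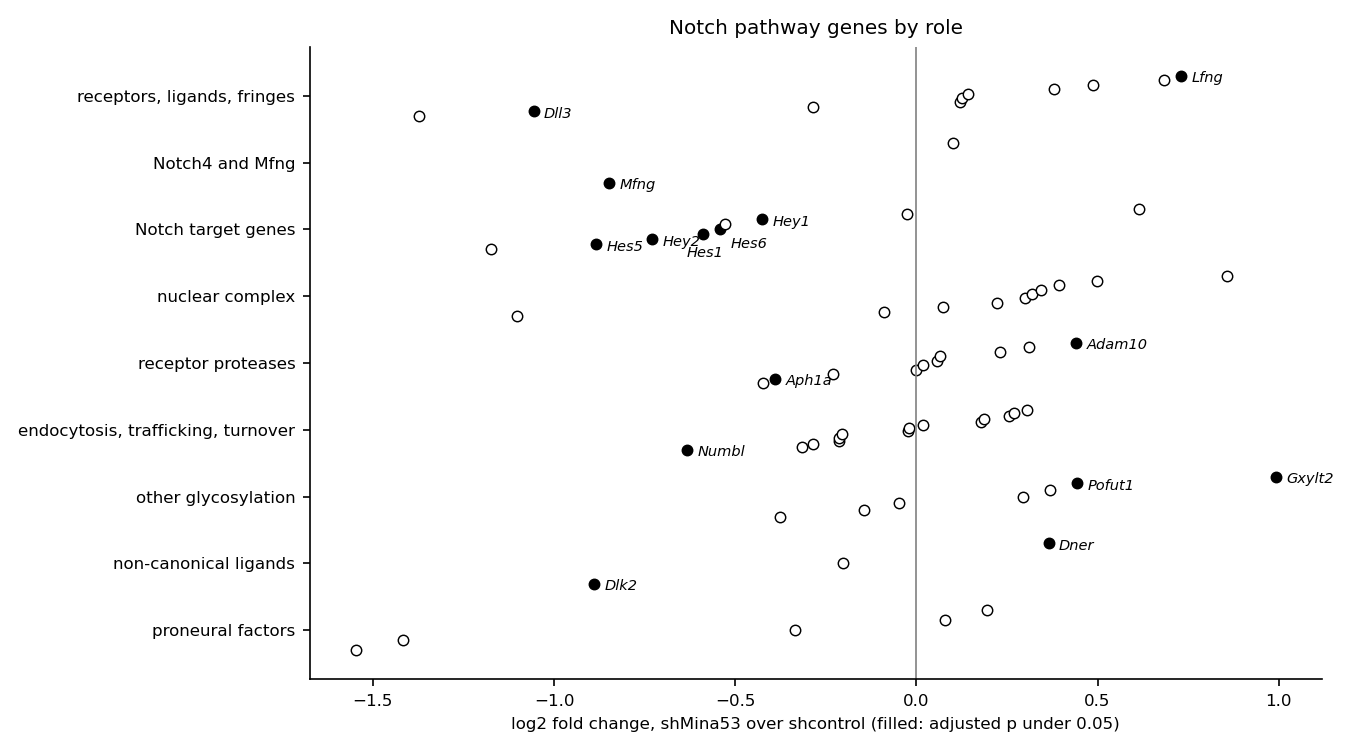
Log2 fold change of shMina53 over shcontrol (horizontal axis) for the tested genes of the Notch pathway, 1 row of points for each role, filled and named where the adjusted p was under 0.05. Of the target genes, 5 are called and all lie to the left of 0; Lfng, Adam10, Pofut1, Gxylt2 and Dner are called to the right.

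The machinery between ligand and target went both ways. In the nuclear complex with RBPJ 0 of 10 genes were called by limma, edgeR or DESeq2, with 2 higher and 1 lower at an unadjusted limma p under 0.05; the median was 0.31. Without shcontrol 1 the number called was 3, all higher: the coactivator genes Maml2 (0.48), Crebbp (0.48) and Ep300 (0.44), with adjusted p of 0.0209, 0.0227 and 0.0423. These are long genes (6598, 10820 and 9566 bases), each lowest in shcontrol 3. Without shcontrol 3 they were at 0.14, 0.11 and -0.03, and with the length trend removed at 0.23, 0.08 and 0.02. They were not called in either of those fits. Rbpj, the DNA-binding subunit, had 1189 ± 63.1 and 1119 ± 69.3 scaled counts (-0.09). The coactivator genes Maml1 (0.30; adjusted p = 0.133) and Maml3 (-1.10; adjusted p = 0.0892) had the smallest p there, and Maml3 was called with the length trend removed (adjusted p = 0.044). Of 10 receptor protease genes 1 was called higher and 1 lower (median 0.04). Adam10, the protease that makes the first ligand-dependent cut, rose from 2279 ± 183 to 3087 ± 91.2 (0.44; adjusted p = 0.0166), and Aph1a, a gamma-secretase subunit, fell from 1387 ± 37.5 to 1061 ± 83.2 (-0.39; adjusted p = 0.0344). Neither passed when shcontrol 2, shMina53 2 or shMina53 3 was omitted (adjusted p up to 0.106 and 0.179), nor did Aph1a under upper-quartile scaling (0.0606). Psenen, another gamma-secretase subunit gene, was also called lower without shcontrol 1 (-0.63; adjusted p = 0.00377). It is short (823 bases), was highest in shcontrol 3, and its groups overlapped. Its fold change was -0.42 over all 6 libraries (adjusted p = 0.148) and -0.20 without shcontrol 3 (adjusted p = 0.277). With the length trend removed it was -0.06 (adjusted p = 0.733).

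Of 14 genes of ligand endocytosis and receptor turnover 1 was called lower, Numbl, an inhibitor of the receptor (656 ± 113 to 418 ± 8.86), and 0 higher by limma, edgeR or DESeq2, with 2 higher at an unadjusted limma p under 0.05 (median -0.02). Leaving out shcontrol 3, the library that stands apart by length, gave 4 lower: Numbl, Dtx3 and the E3 ligase genes Mib1 (-0.30; adjusted p = 0.0134), which drives ligand endocytosis, and Neurl1b (-0.44; adjusted p = 0.0334). Leaving out shcontrol 1 gave 2 lower, Numbl and Dtx3, and 2 higher, the ligase genes Nedd4 and Dtx4. Nedd4 and Dtx4 were lowest in shcontrol 3 and were at 0.16 and 0.19 without it. In the fit with the length trend removed they were at 0.07 and 0.23, and they were called in neither of these fits. With the length trend removed 2 were lower, Numbl and Mib1 (-0.44; adjusted p = 0.00157), where the fit to all 6 libraries gave Mib1 -0.21 (adjusted p = 0.254). Mib1, Neurl1b, Nedd4 and Dtx4 were singled out after their values were seen. Numbl missed the threshold when either shcontrol 2 or shMina53 3 was omitted (adjusted p up to 0.071). The E3 ligase gene Dtx3 had the next smallest p (-0.32; adjusted p = 0.0821) and was called without shcontrol 1, without shcontrol 3 and by DESeq2. Of 7 glycosylation genes other than fringes 2 were called higher and 0 lower by each of the 3 tools, with 0 lower at an unadjusted limma p under 0.05 (median 0.29). Pofut1, which adds the O-fucose that fringes extend, rose from 707 ± 62.0 to 961 ± 70.2 (0.44), and Gxylt2, a xylosyltransferase that extends O-glucose, from 28.0 ± 3.06 to 56.5 ± 1.44 (0.99). Neither passed when shcontrol 2 or 1 of the shMina53 libraries was omitted (adjusted p up to 0.152 and 0.113), nor with the length trend removed, where Pofut1 was at 0.28 (adjusted p = 0.0688) and Gxylt2 at 0.84 (adjusted p = 0.0513).

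Of 3 non-canonical ligands tested Dner, a transmembrane ligand of neurons and glia, rose from 2745 ± 163 to 3531 ± 65.9 (0.37; adjusted p = 0.0373), and Dlk2, a Delta-like protein gene, fell from 56.7 ± 13.6 to 29.5 ± 1.32 (-0.89; adjusted p = 0.0495). Each was called in 1 of the 6 fits without 1 library, Dner without shcontrol 3 and Dlk2 without shcontrol 1 (adjusted p up to 0.155 and 0.207), and Dlk2 was also not called by DESeq2, under upper-quartile scaling, at a pseudocount of 0.5 or with the length trend removed (adjusted p 0.0511 to 0.0755). Of the 5 proneural factor genes tested 0 were called by limma, edgeR or DESeq2, and 1 was lower at an unadjusted limma p under 0.05. That gene, Neurog2, rested on 37 and 10 reads (adjusted p = 0.0719), and Neurod4 on 12 and 3. Notch4, an endothelial receptor, had 18.3 ± 2.32 and 20.4 ± 6.81 scaled counts (0.10; adjusted p = 0.902).

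The genes closest to Dll3 and Lfng in their pattern over the 6 libraries were sought among 12050 genes whose mean reached 50, by the root mean square difference of log2 values centred on each gene's mean. For Dll3 these were Igsf21, a synaptic adhesion protein gene (0.0754), Slc1a1, a glutamate transporter gene (0.12), and Mbp, a major myelin protein gene (0.13). Igsf21 went from 126 ± 8.53 to 63.2 ± 19.9 scaled counts, Slc1a1 from 551 ± 44.0 to 286 ± 56.3 and Mbp from 213 ± 36.4 to 110 ± 30.0. Slc1a1 was called in all 6 fits without 1 library, Igsf21 not without shMina53 3 (adjusted p = 0.073) and Mbp not without shMina53 2 or shMina53 3 (up to 0.0678). For Lfng they were Prob1 (0.0676), Chst2, a sulfotransferase gene (0.0729), and Tctn2, a gene of the ciliary transition zone (0.0741), each called in all 6 such fits. Chst2 went from 13686 ± 336 to 21561 ± 258. These genes were picked by likeness to Dll3 or Lfng over the same 6 libraries, so their fold changes and calls largely follow from that choice.

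Markers of cell types that neural stem cell cultures can hold also moved between the groups. Of the 8 oligodendrocyte lineage markers 4 were called lower and 0 higher (median -0.49). All 8 summed to 48011 to 50407 scaled counts in shcontrol and 45598 to 54638 in shMina53. Most of this sum was Olig1 (31403 ± 2995 and 34472 ± 2639) and Olig2 (9840 ± 592 and 10051 ± 1405). The 4 called lower, Sox10, Gpr17, Mbp and Pdgfra, stood at 43.2%, 48.0%, 51.5% and 57.7% of their shcontrol means. At an unadjusted limma p under 0.05 there were 0 higher, and edgeR and DESeq2 also called 0 higher. With the length trend removed 5 were called lower and 1 higher, Olig1 (0.26, adjusted p = 0.02). The 8 astrocyte markers, of which 3 were called higher, and 0 lower by limma, edgeR, DESeq2 or at an unadjusted limma p under 0.05, summed to 70544 to 74197 and 88493 to 92571. The largest part was Slc1a3 (37920 ± 1006 and 51061 ± 174). Fold changes were positive for 7 of the 8, with Slc1a2 at 0.08, and negative for 1, Aldh1l1 (-0.14, not called). The neural stem and progenitor markers, with 1 called higher and 2 lower, summed to 97608 to 119250 and 82616 to 87774. The largest part was Vim (55584 ± 6516 and 41463 ± 2796), which was called lower, as was Sox2 (-0.54). Of the 8, 6 had negative fold changes, with Nes at -0.02, and 2 positive ones, Pax6 (0.34, not called) and Nr2e1 (0.64, called higher). The neuronal markers, with 1 called each way, summed to 10984 to 13489 and 14339 to 15230.5. Most of the neuronal sum was Map2, a microtubule-associated protein gene, which rose from 10738 ± 1191 to 13856 ± 446 and was not called with the length trend removed (0.15; adjusted p = 0.212). The other 7 neuronal markers had negative fold changes (median of all 8 -0.39), 4 of them with an unadjusted p under 0.05. The ependymal markers, with 1 of 6 tested called higher, summed to 361 to 366 and 529.8 to 638. The part of these differences in the changes of Dll3, Lfng and the target genes was not tested.

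Several receptor and ligand genes overlap other genes. Antisense genes share exon bases with Notch1 (0610009E02Rik, 1068 bases, and Gm13568, 414 bases, whose level was not analysed here), Notch3 (Gm17276, 488 bases), Dll1 (A930024N18Rik, 867 bases) and Dll4 (Gm14207, 214 bases), and Gm42820 shares 541 bases with Notch2 on its own strand. Use of strand in counting is not given in the sources used here. In the order named and without Gm13568, these genes had means of 8.27, 1.48, 8.44, 1.14 and 1.83 scaled counts, against 3458, 2619, 747, 7.59 and 801 for the gene they overlap. How many reads were assigned to the wrong gene of a pair was not tested.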

How the data were processed

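Scaled counts were deposited by the authors in 1 table, with a signal column for each of 6 libraries, the group means and p-values of a comparison. All values of a library were whole multiples of 1 step (tolerance 0.01 reads, 100% of values), so whole reads were recovered. The authors' deposited p-value names no test; it differed from a DESeq2 p-value on these reads by a median of 1.1e-06 in log10 p. Per the submitters' processing notes, UMI-tools, edgeR, DESeq2, StringTie 1.3.4d, HISAT2 2.0.4, CASAVA and mm10 are named without roles; deduplication is not given.

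Groups were compared with limma 3.58.1 (R 4.3.3; trend and robust) on log2(scaled count + 1) for genes whose mean reached 1, two-sided, Benjamini-Hochberg adjusted, without covariates. edgeR 4.0.16 (quasi-likelihood, TMM) and DESeq2 1.42.0 on reads were alternatives. Exon-union lengths and overlaps came from GENCODE M21 on mm10; the length trend was a lowess curve per library (span 0.3). The steps were tested on simulated data. The genes and lists were chosen with earlier results of these data known; named pathway genes are those called, or up to 2 with the smallest p per list. Hes2, Atoh1 and some markers were not analysed here, and 1 pathway gene is not reported by name.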

Additional observations from a re-analysis of the deposited data

How the results depend on the processing

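Over the 10 genes, Dll3 and Lfng kept their direction in every alternative run and their call in all but limma without its trend and robust steps, which called 32 genes in all, with 0 of the 10 higher and 0 lower. Of 1776 genes called, 45.9% were higher, and 58.7% under upper-quartile scaling, where the median of all genes was 0.06. The number called without 1 library ran from 497 (without shMina53 3) to 2794 (without shcontrol 1), that of the 10 called higher from 1 to 2 and that called lower from 1 to 2. DESeq2 called 2 of the 10 higher, the added gene being Notch3. With the replicate block 1178 genes were called and 2 of the 10 were higher (Notch3, adjusted p = 0.0348). The replicate numbers share no stated origin, and same-numbered libraries correlated at -0.145, 0.107 and 0.02 in their deviations from the group means, so they were not treated as pairs. Notch4 turned negative with the length trend removed (-0.0185) and without shMina53 2 or shMina53 3 (-0.0663 and -0.0324), with 0.40 as the highest value without 1 library; no direction is given for it. Dll4 was not tested with a mean of at least 10 or by edgeR and had no adjusted p from DESeq2, since its 36 and 11 reads fell under their filters. Among the named genes over all settings, 546 fits kept direction and call, 83 lost a call, 8 gained one and 3 changed sign.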
